A study of Mus musculus with 2 samples.

Results

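Mucin-type glycosyltransferases are the Golgi enzymes that build the sugar chains of mucus proteins. They were compared between the colons of wild-type mice and of mice made transgenic for IL-9, the interleukin best known for driving mast cell growth. Members were the probe sets to which the array annotation gives exactly 1 gene symbol of the families Galnt, B3gnt, B3galt, B4galt, Gcnt, St3gal, St6gal, St6galnac and Fut, or of C1galt1 and its chaperone C1galt1c1. This gave 91 probe sets of 52 genes, out of 12393 genes with a single-symbol probe set on the array. The wild-type group was FVB mice, an inbred strain, and the transgenic group was IL-9 transgenic mice whose array is titled Tg5; the design text spells the strain TVB. Each group was 1 array of RNA from a distal colon piece, pooled from 4 mice, and all mice were kept specific pathogen free. The sources used here do not give the age or sex of the mice, or the promoter of the transgene.

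A mucin-type chain starts when a GALNT enzyme attaches N-acetylgalactosamine to serine or threonine of the protein. C1GALT1 then adds galactose (the core 1 structure), GCNT enzymes add branches, and B3GNT and B4GALT enzymes lengthen the chain. Sialyltransferases and fucosyltransferases cap it, and these caps are what bacteria and lectins meet at the surface of the colonic mucus. The name-based rule also takes in relatives that act mainly on other acceptors, namely glycolipids (B3galt4, B3gnt5, B4galt5, B4galt6, St3gal5, St6galnac5, St6galnac6), the proteoglycan linker (B3galt6, B4galt7) or N-glycans (St6gal1, Fut8). Fut10 was set apart with them.

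Values are MAS5 intensities, a linear brightness per probe set after background and mismatch correction. Intensities below a floor of 19.8 were set to the floor, and genes above it on 1 array or both are called measured. A gene with several probe sets is represented by the one with the highest mean intensity. The log2 ratio is transgenic over wild type, and with 1 array per group it has no replicate check, no test and no standard error. Precision is limited by the number of arrays. As a technical yardstick, log2 ratios from probe sets of the same gene had a pooled SD of 0.28 over 2847 genes, which contains no spread between mice. Intensities of different probe sets are not on a common scale, so genes are compared only by their ratios. In a tissue piece, fewer cells of a type and less RNA per cell cannot be told apart.

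The array check and the makeup of the pools were as follows. The Il9 signal was 5.14 in the wild-type pool and 862 in the transgenic pool. Markers of colon epithelium were present in both pools. Summed intensities in the wild-type and transgenic pools were 7489 and 6780.35 over 5 absorptive colonocyte genes. They were 20268 and 26802 over 9 goblet cell genes, 8 of them higher in the transgenic pool. Of these 8, Agr2 had a log2 ratio of 0.23, but its second probe set, with 448 and 237, gave −0.92. The second probe set of Clca1, with 31.3 and 122, gave 1.97. All 6 B cell markers were higher, from a sum of 232 to 977, or 170 to 407 without Ighm. All 7 mast cell markers were higher too, from a sum of 194 to 3303, or 174 to 535 without Mcpt1 and Mcpt2. All 8 pancreatic acinar markers were at least 2-fold lower, from a sum of 22920.1 to 1580. These sums add probe sets of unlike scale and only describe each list. The part of these differences in the ratios below was not tested.

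No glycosyltransferase gene above the floor on both arrays differed by 2-fold between the pools. For the 5 genes above it on 1 array the ratio is only a bound, which was under 2-fold in each. Of 52 genes, 37 were measured, 32 of them on both arrays, and 15 lay below the floor on both. By ratio or bound, 0 of the 37 reached 2-fold in the upward and 0 in the downward direction, where 0.767% and 0.611% of all 8346 measured genes did, 1.38% in all. A share of 0 among 37 genes is near that background and is not a result about these genes. At 1.5-fold, 2 of 37 were higher (Fut2 and B3gnt9) and 0 lower, which is 5.41%, against 4.09% higher and 2.85% lower, 6.94% in either direction, over all measured genes. Log2 ratios ran from −0.54 for St3gal2 to 0.72 for Fut2. The median was 0.17 with 27 of 37 ratios positive (73.0%), beside a median of 0.04 with 56.0% positive over all measured genes. No error can be put on this gap. A ratio larger in size than the yardstick was seen in 14 of 37 members (37.8%) and in 31.5% of all measured genes.

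**Figure D1:**
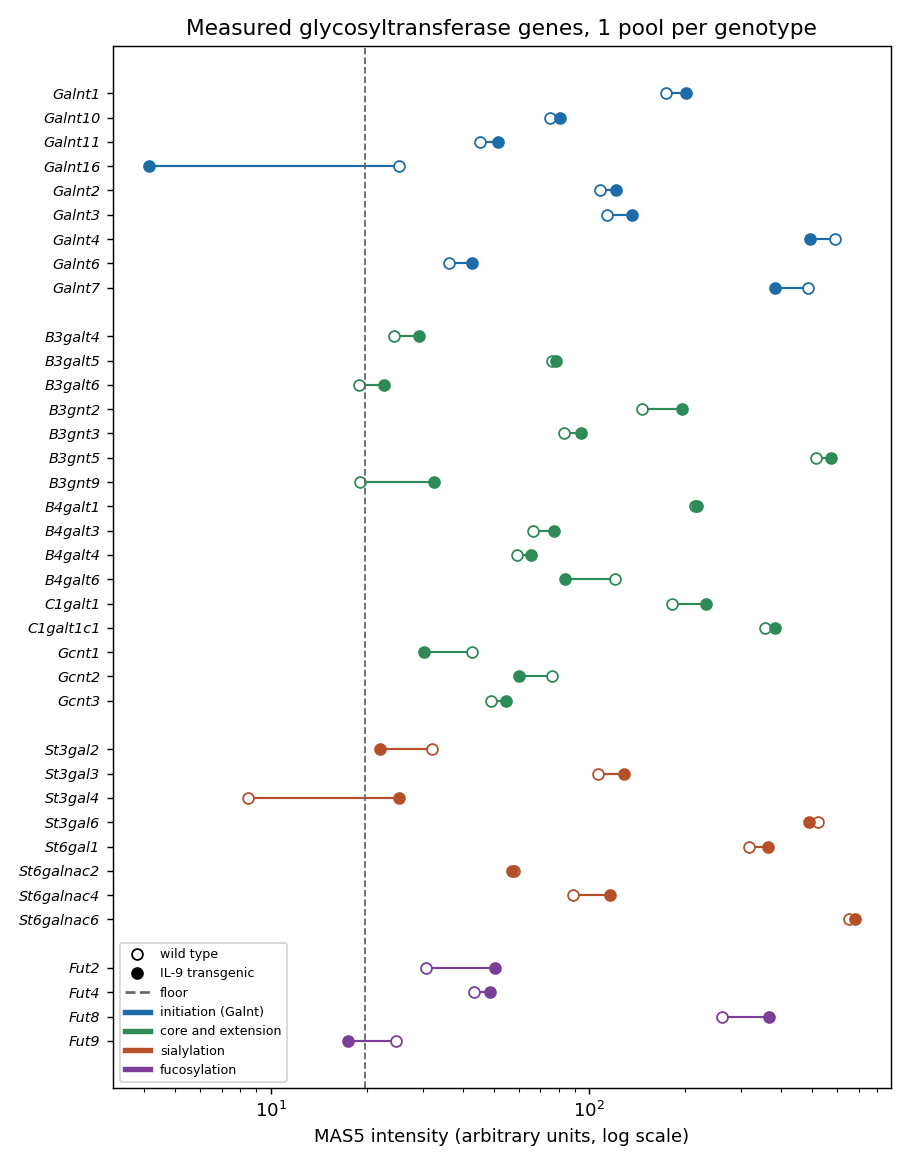
MAS5 intensity (log axis, arbitrary units) of the 37 measured genes by step, with open circles for the wild-type pool, filled circles for the transgenic pool and a dashed line at the floor of 19.8. Most pairs lie close together; Galnt16 and St3gal4 are far apart, but each has 1 circle below the floor.

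**Figure D2:**
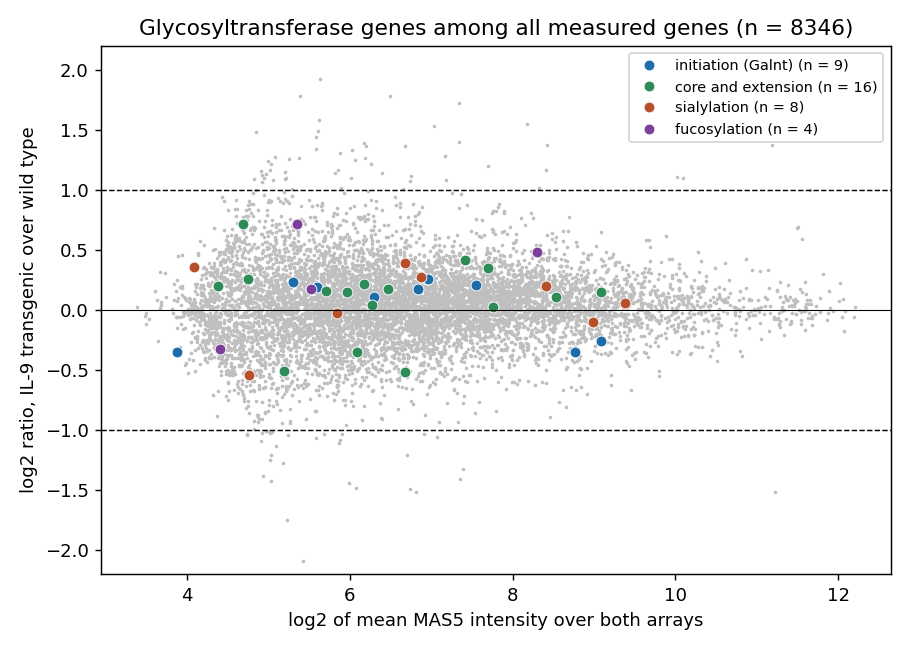
Log2 ratio of transgenic over wild type against log2 of the mean intensity for all 8346 measured genes (grey) and the members by step (coloured), with dashed lines at 2-fold; 28 other genes lie beyond the axis limit of 2.2 in size. All members sit between the dashed lines, 5 of them drawn at a bound set by the floor.

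The scatter of ratios depended on intensity, which sets how far a single member can be read. Among genes above the floor on both arrays, split into 4 bins of equal size by intensity, the SD of the log2 ratio was 0.37 in the lowest bin, from 19.97 to 52.7. It was 0.26 in the highest bin, from 228 upward. The lowest bin held 8 members and the highest 8. No member probe set exceeded 683, far below the highest intensity on either array (4760.34 and 4752.95).

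The fucosyltransferases, which add fucose caps, held the largest ratio among members above the floor on both arrays. Fut2, the enzyme that makes the H antigen on intestinal epithelial mucins, gave 30.7 in wild type and 50.5 in transgenic colon, a 1.65-fold higher value (log2 ratio 0.72). It was read by 1 probe set, 1450246_at. Of all measured genes, bright and dim together, 3.62% had a ratio at least as large in size. Fut2 lies in the lowest of the 4 intensity bins, where the SD of the log2 ratio was 0.37. With an equal small share of genes cut from each end, log2 ratios in that bin ran from −0.66 to 0.75. The Fut2 ratio lies within this range, near its upper end, so it is not outside the usual scatter of genes this dim. Fut8 adds the core fucose of N-glycans and so acts on another kind of chain. It went from 262 to 367, 1.40-fold higher, with 11.2% of all measured genes at least as far from 0. Fut8 lies in the highest bin, where the SD was 0.26 and log2 ratios, cut in the same way, ran from −0.41 to 0.50. Its log2 ratio of 0.49 is within this range, near its upper end. Fut4, a Lewis x synthase also present in leukocytes, had 43.3 and 48.8, a log2 ratio of 0.17.

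The remaining fucosyltransferases had at least 1 value below the floor. Fut9, another Lewis x synthase, had 24.7 in wild type and 17.5 in transgenic colon, where it was below the floor, so it was at least 1.25-fold lower. Fut7, which makes the sialyl Lewis x ligand of selectins on leukocytes, had 12.1 and 0.913. Fut1, the other H antigen synthase, had 1.18 and 0.648, and Fut10 had 0.965 and 6.97. No ratio is given for these last 3 because both values lie below the floor. The median over the 4 measured fucosyltransferases was 0.33, with 3 positive and 1 negative, and it was 0.17 without Fut8.

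Genes on either side of fucosylation were read from lists of the wider pathway. Gfus, which completes the synthesis of GDP-fucose, the donor of all these enzymes, had 263 in wild type and 382 in transgenic colon, a log2 ratio of 0.54. The Golgi GDP-fucose transporter Slc35c1 had 86.9 and 94.7, a log2 ratio of 0.12. Abo, which extends the H antigen made by FUT2 into a blood group antigen, had 34.98 and 59.7, 1.71-fold higher. On the removal side, the lysosomal fucosidases Fuca1 and Fuca2 had log2 ratios of −0.14 and 0.06. The other probe sets of Fuca1 gave 0.24 and 0.43, so no direction can be given for it.

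Initiation was represented by 9 GALNT genes, all of them measured, 8 on both arrays. Log2 ratios ran from −0.35 to 0.26 with a median of 0.18, and 6 were positive and 3 negative. Over all measured genes 56.0% were positive. At 1.5-fold, 0 of the 9 passed, beside 6.94% of all measured genes. A 0 among 9 genes is near that share and is not a result about them. Galnt1 and Galnt2, broadly expressed enzymes that act on bare protein, had 174 and 201, and 108 and 122, in wild type and transgenic colon. Their log2 ratios were 0.21 and 0.18. The second probe set of Galnt1 gave the same 0.21. The other probe sets of Galnt2 did not match its first: 1 gave 0.04, and 1425610_s_at, with 59.0 and 39.4, gave −0.58. This was the lowest ratio of any member probe set above the floor on both arrays. No direction can be given for Galnt2.

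Galnt3 and Galnt6, close relatives of each other, were higher by a similar amount. Galnt3 had 114 and 136 (log2 ratio 0.26) and Galnt6 had 36.3 and 42.8 (0.24). Galnt11, which is known to glycosylate Notch, had 45.2 and 51.6 (0.19). These ratios are all below the yardstick.

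The enzymes that prefer proteins already carrying N-acetylgalactosamine, and so fill in dense clusters, did not move together. Galnt7 had 486 in wild type and 382 in transgenic colon (log2 ratio −0.35), and its other probe sets gave −0.08 and 0.07. Galnt4 had 589 and 493 (−0.26), and its other probe set above the floor gave 0.11. Galnt10 had 75.4 and 81.1 (0.11), with −0.08 from the other probe set. Each of these 3 genes thus had probe sets on both sides of 0, and no direction can be given for them.

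Galnt16 had 25.2 in wild type and 4.13 in transgenic colon. The second value is below the floor, so the gene was at least 1.28-fold lower. With a floor at the 20th percentile of intensities it was at least 4.52-fold lower, so the size of this difference rests on where the floor is set.

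The core 1 step was represented by both of its genes. C1galt1, the core 1 galactosyltransferase, had 182 in wild type and 232 in transgenic colon, a log2 ratio of 0.35 from probe set 1422772_at. Its second probe set, 1450745_at, had 183 and 178, a log2 ratio of −0.04, so the higher value was not shared between them. C1galt1c1, also known as Cosmc, the chaperone without which C1GALT1 does not fold, had 355 and 382 (0.11). Its second probe set was below the floor on both arrays. The core 3 synthase gene B3gnt6, characteristic of colon, has no single-symbol probe set and was not analysed here.

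The branching GCNT genes went both ways. Gcnt1, the core 2 branching enzyme used by leukocytes and many other cells, had 42.8 in wild type and 30.2 in transgenic colon. It was 1.42-fold lower (log2 ratio −0.50) by its 1 probe set. Gcnt1 lies in the lowest intensity bin. With the ends cut as for Fut2, log2 ratios in that bin ran from −0.66 to 0.75, a range that holds −0.50. Gcnt3, the mucin-type enzyme of the gut, had 49.1 and 54.9, a log2 ratio of 0.16. Gcnt2, which makes I branches on poly-N-acetyllactosamine, had 76.2 and 59.96, a log2 ratio of −0.35. A second Gcnt2 probe set above the floor on both arrays gave −0.07, and another, above it in wild type only, had 22.6 and 16.7. The other 4 of its 7 probe sets were below the floor on both arrays.

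Chain extension by N-acetylglucosamine, the task of the B3GNT family, had 4 measured genes. By the probe set that stands for each gene, all ratios were positive, with a median of 0.30. B3gnt9 had 19.0 in wild type, just below the floor, and 32.5 in transgenic colon, so it was at least 1.64-fold higher. B3gnt2, the main poly-N-acetyllactosamine synthase, had 147 and 196 (log2 ratio 0.42) by 1 probe set and 106 and 89.3 (−0.25) by the other. These 2 probe sets of B3gnt2 differ by 0.67, more than most member ratios. B3gnt3, which extends core 1, had 83.2 and 94.2 (0.18). B3gnt5, which starts lacto-series glycolipids, had 515 and 573 (0.15), with −0.20 from its other probe set. No direction can be given for B3gnt2 or B3gnt5.

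Galactose is added to these chains by the B3GALT and B4GALT families. B4galt6, a lactosylceramide synthase, was lower in the transgenic pool by all 4 of its probe sets. Its intensities in wild type and transgenic colon were 120 and 83.9 by 1460329_at, 67.0 and 50.8 by 1450913_at, 96.1 and 79.4 by 1435758_at, and 34.6 and 29.3 by 1423228_at. The log2 ratios were −0.52, −0.40, −0.28 and −0.24, with a mean of −0.36 and an SD between probe sets of 0.13. This was the member read by the most probe sets above the floor, and the transgenic value was lower in each. All 4 read the same 2 RNA pools, so they are not replicates. Of all measured genes, 9.49% had a ratio at least as large in size as −0.52. B4galt6 lies in the intensity bin from 52.8 to 102. With the ends cut as for Fut2, log2 ratios in that bin ran from −0.58 to 0.75, a range that holds −0.52. B4galt6 is also a glycolipid enzyme, outside the mucin pathway proper.

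The other measured B4GALT genes had small ratios. B4galt1, which makes N-acetyllactosamine and lactose, had 215 and 218 (log2 ratio 0.02, and −0.02 under loess and −0.01 under quantile scaling). B4galt3 had 66.6 and 77.3 (0.22) and B4galt4 had 59.0 and 65.5 (0.15). B4galt2, B4galt5 and B4galt7 were below the floor on both arrays. Of the B3GALT genes, B3galt5, which makes type 1 chains in the gut, had 76.2 and 78.6 (0.04). B3galt4, a ganglioside synthase, had 24.4 and 29.2 (0.26). B3galt6 was at least 1.15-fold higher, from 18.9, below the floor, to 22.7. B3galt1, B3galt2, B3gnt4 and B3gnt8 were below the floor on both arrays.

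Over the whole core and extension step, 16 of 23 genes were measured, 13 with positive and 3 with negative ratios, and the median was 0.16. The negative ones were B4galt6, Gcnt1 and Gcnt2.

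Sialylation had 8 measured genes of 13, with 5 positive and 3 negative ratios and a median of 0.13. Lowering the floor to the 20th percentile gave a median of −0.01 over 12 genes, and removing it gave −0.02 over all 13, so its sign depends on the floor. St3gal2, which puts sialic acid on core 1, had 32.0 in wild type and 22.0 in transgenic colon, 1.45-fold lower (log2 ratio −0.54). This was the most negative ratio among member genes above the floor on both arrays. St3gal2 lies in the lowest intensity bin. With the ends cut as for Fut2, log2 ratios in that bin ran from −0.66 to 0.75, a range that holds −0.54. The 2 other probe sets of St3gal2 were below the floor on both arrays. St3gal1, which acts on the same structure, had 11.6 and 8.78, both below the floor.

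The enzymes that sialylate N-acetyllactosamine ends were St3gal3, St3gal4 and St3gal6. St3gal3 was higher by both probe sets, with 106 and 128 (log2 ratio 0.27) and with 26.5 and 38.1 (0.52). St3gal4 went from 8.46, below the floor, to 25.3, at least 1.28-fold higher. With the floor at the 20th percentile both values lay above it, and their ratio was 2.99-fold. St3gal6 had 524 and 488 (−0.10) by 1449079_s_at and 356 and 506 (0.51) by 1449078_at. The St3gal6 probe sets thus differ by 0.61 and no direction can be given.

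St6gal1, which sialylates N-glycans and makes the ligand of the B cell lectin CD22, had 317 and 365 (log2 ratio 0.20). Its second probe set, with 74.3 and 86.1, gave 0.21. B cell markers were higher in the same pool, with a median log2 ratio of 1.29 over 6 genes, and their part in the St6gal1 value was not tested.

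The St6galnac genes sialylate N-acetylgalactosamine within O-glycans and gangliosides. St6galnac4, which acts on sialylated core 1, had 88.8 in wild type and 116 in transgenic colon (log2 ratio 0.39), while its other probe set, with 20.98 and 17.7, was below the floor in the transgenic pool. St6galnac2 had 58.0 and 57.1 (−0.02) and St6galnac6, a ganglioside enzyme, 655 and 683 (0.06). St6galnac1, the sialyl-Tn synthase of goblet cells, had 5.49 and 0.634, both below the floor. St6galnac3, St6galnac5 and St3gal5 were also below it.

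**Figure D3:**
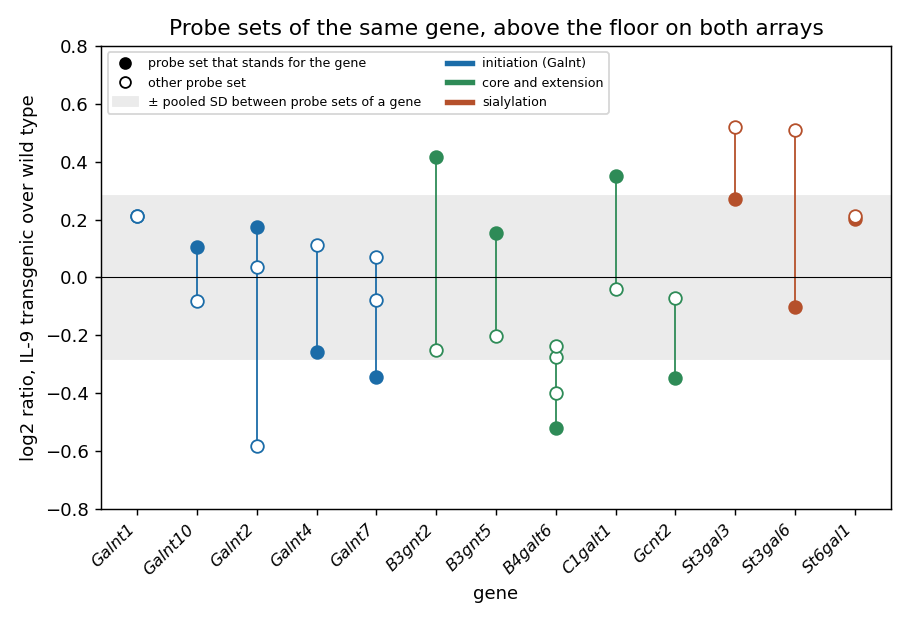
Log2 ratio of transgenic over wild type for each probe set of the 13 members with more than 1 probe set over the floor in both pools; filled circles stand for the gene, open circles are its other probe sets, and the grey band is the pooled SD of 0.28. The circles of B4galt6 and Gcnt2 are all below 0, those of Galnt1, St3gal3 and St6gal1 all above, and 8 genes straddle 0.

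Agreement between probe sets was the main check that these data allow within a gene. Of 13 members with more than 1 probe set over the floor in both pools, 5 had all their ratios on the same side of 0 (38.5%), beside 47.8% of 2847 genes over the whole array. Those 5 were B4galt6 and Gcnt2, both lower, and Galnt1, St3gal3 and St6gal1, all higher. The largest gap was in Galnt2, at 0.76, and the smallest in Galnt1.

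Members known chiefly for other acceptors were compared with the rest. The 7 measured genes of the first kind had a median log2 ratio of 0.20, with 6 positive. The 30 others had a median of 0.17, with 21 positive. No error can be put on the difference.

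Promoter sequences were examined because IL-9 acts through STAT transcription factors, and the members with a STAT-type motif are shown to set their letters beside their ratios. The motif searched was TTCNNNGAA, which reads the same on both strands, in the 250 bases before each start site in RefSeq (GRCm38.p6). Of 52 members, 37 matched the promoter table by symbol and 3 of these held the motif (8.11%). Over all 27025 genes of the promoter table the share was 8.13%. Among measured genes it was 11.5% of 26 members and 6.91% of 6785 genes. A gene counted if any of its promoters held the motif. The 26 members had 42 promoters and the 6785 genes had 8779, so members had more promoters per gene and these shares are not like for like. The motif is in capitals in each stretch, read 5′ to 3′ on the strand of the gene.
B4galt1, chr4:40854025-40854133, minus strand: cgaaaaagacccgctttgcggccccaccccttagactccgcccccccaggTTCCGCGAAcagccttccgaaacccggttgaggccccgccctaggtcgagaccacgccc
B3galt5, chr16:96235741-96235800, plus strand: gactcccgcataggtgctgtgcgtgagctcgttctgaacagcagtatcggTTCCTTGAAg
Gcnt2, chr13:40886521-40886549, plus strand: ttcaactcttTTCTGTGAAgtcttcaggt

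The motif lies 90 bases before the start site in B4galt1, 1 base before it in B3galt5 and 218 bases before an internal start site in Gcnt2. The log2 ratios of these genes were 0.02, 0.04 and −0.35, while the 23 measured members with a promoter but no such motif had a median of 0.20. Over all measured genes the medians were 0.06 with and 0.04 without the motif. The GC box GGGCGG, a common element of promoters without a TATA box, was in 69.2% of measured members with a promoter and 64.9% of all measured genes with one, on either strand. TATAAA, on either strand, was in 1 measured member, Gcnt1, which is 3.85%, against 8.46% of measured genes. A match describes letters only and is not evidence of a bound site.

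The wider pathway was read from lists of 5 kinds. In the list of mucins and mucin-like proteins, 5 of 12 genes on the array were measured and 0 reached 2-fold. Over all measured genes 1.38% did, so a 0 among 5 genes is near that share. The mucin gene Muc2 has no single-symbol probe set and was not analysed here. Fcgbp, a goblet cell mucus protein that is crosslinked into the mucin network, had 2217 in wild type and 3561 in transgenic colon (log2 ratio 0.68). It is itself 1 of the 9 goblet cell markers. The membrane mucin genes Muc13 and Muc3 had 0.07 and −0.05. A second Muc13 probe set, with 543 and 393, gave −0.47, so its probe sets lie on both sides of 0. Selplg, the P-selectin ligand of leukocytes, had 25.2 and 35.7 (0.50). Muc1, Muc4, Muc5ac, Muc5b, Muc15, Muc20 and Spn were below the floor on both arrays.

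Supply of the sugar donors was represented by 20 genes, all above the floor on both arrays. Log2 ratios ran from −0.34 to 0.54 with a median of 0.13, and 15 were positive (75%), beside 56.0% of all measured genes. At 1.5-fold, 0 of the 20 passed, beside 6.94% of all measured genes. A 0 among 20 genes is near that share and is not a result about them. After Gfus, the largest in size were Uap1 (−0.34) and Slc35a2 (−0.33). Uap1 makes UDP-N-acetylglucosamine and UDP-N-acetylgalactosamine, and Slc35a2 carries UDP-galactose into the Golgi. The other probe sets of Slc35a2 were all positive, from 0.13 to 0.28, and the others of Uap1 above the floor ran from −0.07 to 0.11. The sialic acid genes Gne, Nans, Nanp, Cmas and Slc35a1 had ratios from −0.08 to 0.18. The second probe sets of Nans and Slc35a1 gave 0.39 and 0.17.

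Sulfation, another way of capping mucin chains, had 9 measured genes of 13 with a median of −0.03. Chst4, which sulfates N-acetylglucosamine on mucins and on selectin ligands of high endothelial venules, had 112 in wild type and 219 in transgenic colon, 1.96-fold higher (log2 ratio 0.97) and just short of 2-fold. Endothelial markers were higher in 5 of 5 measured genes, with a sum of 233 and 353 over the 6 on the array. Goblet cell markers were higher in 8 of 9, with the probe sets of Agr2 on both sides of 0, as given above. Their part in the Chst4 value was not tested. Of the sulfate donor genes, Papss1 had −0.21 and Papss2 −0.20. The other Papss2 probe sets above the floor gave −0.25 and, by 1421989_s_at with 224 and 105, −1.10, which is over 2-fold lower.

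Other capping enzymes, outside the families of the rule, had 9 measured genes of 12, 6 of them positive, and a median of 0.31. B4galnt2, which makes the Sda antigen of colon mucins from sialylated chains, had 216 in wild type and 353 in transgenic colon (log2 ratio 0.71). Its second probe set had 72.7 and 146, a log2 ratio of 1.003. Both probe sets were thus higher in the transgenic pool, the second by slightly over 2-fold. B4galnt1, a ganglioside synthase, went from 14.9, below the floor, to 27.7. In the list of enzymes that remove sugars, 7 of 9 genes were measured with a median of 0.06, and Gla, the lysosomal α-galactosidase, had 0.60.

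**Figure D4:**
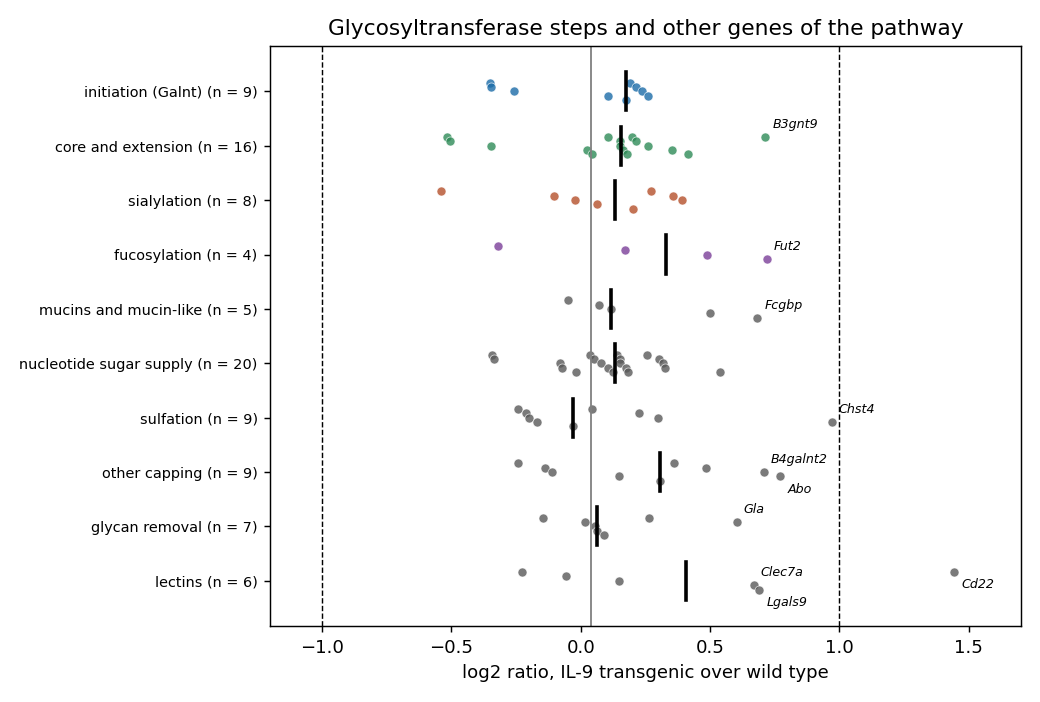
Log2 ratio of transgenic over wild type for each measured gene, by glycosyltransferase step (coloured) and pathway list (grey); black bars are medians, the grey line is the median of all measured genes (0.04), dashed lines are 2-fold, and genes at 1.5-fold or more are named. The step medians lie between 0.13 and 0.33, and the genes named among steps are B3gnt9 and Fut2.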

How the data were processed

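Colon RNA was hybridised to 2 Affymetrix arrays, 1 per genotype. The value table deposited by the authors holds a linear MAS5 intensity per probe set, per the submitters' processing notes, with no version given in the sources used here. The mean intensity without the lowest and highest 2% of probe sets was 100.04 on both arrays, the mark of scaling to a common target. MAS5 subtracts background and mismatch signal, which makes ratios of low values unstable. The annotation gave 1 symbol to 20380 of 22690 probe sets; all 91 member probe sets matched the RefSeq gene table of GRCm38.p6, used for names, and 0 symbols changed. No probe set with several symbols held a symbol of these families. Another 14 genes that fit the rule have no single-symbol probe set and were not analysed here.

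Python 3.11.15, numpy 2.4.6 and pandas 2.3.3 were used. The floor was the 40th percentile of non-control probe sets over both arrays, and a difference was counted at 2-fold, with 1.5-fold as an alternative. Other alternatives were median, quantile and loess scaling (span 0.3, statsmodels 0.14.6), floors at the 20th and 60th percentiles, no floor with a pseudocount of 0.735, other probe set rules, and leaving out members of other acceptors. All measured members were named; of the pathway lists, genes past 1.5-fold in either direction, up to 4 per list with the largest ratios, and others chosen after their values were seen. The members, lists and motifs were chosen with earlier results of these data known. The procedure was tested on simulated arrays with known ratios, all well past 2-fold and planted in genes well above the floor. That test does not bear on ratios as small as those of the members.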

Additional observations from a re-analysis of the deposited data

How the results depend on the processing

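The median log2 ratio of the measured members stayed between 0.15 and 0.17 under all 9 alternatives in scaling, floor, probe set rule and membership. The initiation median ranged from 0.01, as the mean of all probe sets, to 0.18, the extension median from 0.13 to 0.16, the sialylation median from −0.02 to 0.18 and the fucosylation median from 0.17 to 0.49. The upper end for fucosylation is Fut8 alone, the 1 such gene measured with a floor at the 60th percentile. The counts at 2-fold depended on the floor. At the 20th percentile, 1 of 46 members was higher (St3gal4) and 2 lower (Galnt16 and Fut7), beside 202 higher and 258 lower of 10809 genes. Without a floor, 2 of 52 were higher and 3 lower, with Fut10 and St6galnac1 added, beside 655 and 800 of 12393 genes. At the 60th percentile, 0 of 24 members passed, beside 29 and 27 of 5975 genes. More genes enter at a lower floor, where both values can be dim. At 1.5-fold in place of 2-fold, 2 members passed in place of 0. Fut2 stayed between 0.71 and 0.72 and B4galt6 between −0.54 and −0.36, each over the 8 alternatives that kept it. Both Fut2 values lay below the 60th percentile floor of 55.1, so Fut2 was not measured there. B4galt6 was absent where members of other acceptors were left out. Among measured members, the sign of B3gnt5, B4galt1, Galnt2 and St3gal6 turned under at least 1 alternative. No paired analysis was possible because each group has 1 array. Ratios of genes near the floor are limited by their signal over background.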

Other observations

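Lectins that read O-glycans and sialic acids, and the glucan receptor Clec7a, made a list of 9 genes on the array, 6 of them measured. Cd22, a B cell lectin for sialic acid, had 25.8 in wild type and 70.2 in transgenic colon, 2.72-fold higher; it is itself 1 of the 6 B cell markers. Its second probe set had 5.91 and 20.7. Lgals9, a galectin, had 192 and 310 (log2 ratio 0.69), and the epithelial galectin genes Lgals3 and Lgals4 had 0.15 and −0.06. Clec7a, a myeloid glucan receptor, was at least 1.59-fold higher, from 12.5, below the floor, to 31.4. Lgals2 was at least 1.17-fold lower, and Sele, Selp and Siglec1 were below the floor on both arrays.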
